A study of Mus musculus with 13 samples.

Results

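The 10 genes described here are Nfe2l2, which encodes the transcription factor Nrf2, 6 genes reported as its antioxidant targets (Nqo1, Gclm, Gclc, Txnrd1, Srxn1 and Slc7a11), and the metallothionein genes Mt1, Mt2 and Mt3. They were taken by gene symbol, as a list chosen with earlier results of these data known. Counts of them beside all genes are therefore a description. All 10 were found in the deposited tables, and all 10 were among the 14875 genes that passed the filter on low counts. Polyadenylated RNA was sequenced from perfused brain hemispheres of wild type C57BL/6 mice, all male and 12 to 16 weeks old, on day 4 after controlled cortical impact (CCI), a surgical model of traumatic brain injury, or after sham treatment. The injured (ipsilateral) hemisphere and the opposite (contralateral) hemisphere were separate samples. The ipsilateral CCI group had 4 libraries and the contralateral CCI group 4, both from animals 1, 2, 3 and 5. The ipsilateral sham group had 2 libraries, from animals 4 and 6, and the contralateral sham group 3, from animals 4, 6 and 8. All 13 libraries came from 7 animals of one strain, one sex and one time point, and every sample was bulk tissue of a hemisphere with all of its cell types. Library names mark the ipsilateral side RH and the contralateral side LH, so the side of surgery cannot be told apart from right and left within one animal.

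Nrf2 is held in the cytoplasm by the adaptor Keap1, which passes it to a Cul3 ubiquitin ligase for degradation. When oxidants or electrophiles modify Keap1, Nrf2 accumulates, pairs with small Maf proteins at antioxidant response elements and raises transcription of genes for glutathione synthesis, thioredoxin reduction and quinone reduction, so its own mRNA is not the main level of its control. Metallothioneins are small cysteine-rich proteins that bind zinc and copper; Mt1 and Mt2 are induced by metals through the factor Mtf1 at metal response elements and also by glucocorticoids and inflammation, in brain mainly in astrocytes, while Mt3 is the metallothionein enriched in brain.

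The starts of the metallothionein genes and of Srxn1 are shown because the 3 metallothionein promoters differed in matches to the sequence that Mtf1 is known to recognise, and Srxn1 held the most matches to that of Nrf2. The windows run from 250 bases before the annotated start to 50 bases after it, come from RefSeq (GRCm38.p6), are written 5′ to 3′ on the strand of the gene, and were matched for 9 of the 10 genes, in 11 windows. Capitals in the metallothionein windows mark the metal response element core, TGCACNC or TGCGCNC on either strand. Capitals in the Srxn1 window mark the antioxidant response element core, TGACNNNGC or TGAGNNNGC on either strand. In Gclm 1 match to each motif overlaps the other. Both motifs were chosen with the sequences in view.
Mt1, chr8:94178839-94179138, plus strand: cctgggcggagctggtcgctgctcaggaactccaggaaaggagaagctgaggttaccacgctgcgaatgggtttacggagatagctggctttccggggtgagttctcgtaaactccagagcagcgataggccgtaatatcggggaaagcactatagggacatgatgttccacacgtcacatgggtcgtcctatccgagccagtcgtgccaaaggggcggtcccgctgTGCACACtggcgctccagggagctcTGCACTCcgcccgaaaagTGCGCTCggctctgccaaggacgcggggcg
Mt2, chr8:94172368-94172667, plus strand: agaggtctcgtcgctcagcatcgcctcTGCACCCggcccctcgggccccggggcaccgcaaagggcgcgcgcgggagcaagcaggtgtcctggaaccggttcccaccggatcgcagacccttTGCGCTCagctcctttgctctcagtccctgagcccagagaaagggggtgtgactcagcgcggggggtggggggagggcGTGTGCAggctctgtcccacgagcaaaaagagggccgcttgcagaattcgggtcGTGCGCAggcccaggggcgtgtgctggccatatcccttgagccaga
Mt3, chr8:94152357-94152656, plus strand: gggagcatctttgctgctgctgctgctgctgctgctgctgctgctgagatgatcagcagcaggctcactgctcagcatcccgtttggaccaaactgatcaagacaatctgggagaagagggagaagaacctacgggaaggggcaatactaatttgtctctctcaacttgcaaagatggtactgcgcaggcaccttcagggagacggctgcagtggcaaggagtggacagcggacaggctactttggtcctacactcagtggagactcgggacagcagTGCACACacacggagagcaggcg
Srxn1, chr2:152105274-152105573, plus strand: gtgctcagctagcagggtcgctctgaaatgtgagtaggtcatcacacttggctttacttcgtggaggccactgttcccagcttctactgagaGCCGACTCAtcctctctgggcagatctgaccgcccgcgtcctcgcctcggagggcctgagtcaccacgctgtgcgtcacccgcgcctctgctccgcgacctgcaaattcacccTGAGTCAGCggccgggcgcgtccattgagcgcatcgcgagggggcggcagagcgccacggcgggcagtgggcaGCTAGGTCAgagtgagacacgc

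The Mt2 window held 4 metal response element cores and the Mt1 window 3, whereas the Mt3 window held 1. Of 32851 promoter windows of the same length, 25.7% held at least 1 such core, 1.97% at least 3 and 0.517% at least 4. The Gclm window held 3 and the Srxn1 window 1, and the windows of Nfe2l2, Slc7a11, Nqo1 and Txnrd1 held 0. The Srxn1 window held 3 antioxidant response element cores, and 0.63% of all windows held at least 3, with their first bases 158 and 45 bases before the start and 28 bases after it. Windows of Nfe2l2, Slc7a11, Gclm, Mt2, Mt3 and 1 of the 3 Txnrd1 windows held 1 each, as 27.8% of all windows held at least 1, and those of Mt1 and Nqo1 held 0. The full 9-letter form TGACTCAGC or TGAGTCAGC was found in Srxn1 and Mt2 and in 0.822% of all windows. A match describes letters only and shows no binding, and no match covers only this window.

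Mt3, Mt2 and Mt1 lie in this order on the plus strand of chromosome 8 (GRCm38, GENCODE M21), Mt3 at 94152607 to 94154146, Mt2 at 94172664 to 94173568 and Mt1 at 94179082 to 94180327, with 18517 bases between the first pair and 5513 between the second. The antisense gene Gm45774 overlaps 73.5% of the exon bases of Mt2 in that annotation. The libraries were made with a stranded kit, but no source used here gives the strand setting of the counting, so reads from Mt2 and from its antisense partner cannot be told apart. For Gclm, on chromosome 3 at 122245557 to 122270732, the overlaps were small: 4.71% of exon bases with Gm17494 on the opposite strand and 3.88% with Gm6061 on the same strand. Of the 50-base windows of Gclm exons 3.92% also occur in other genes, mostly Ppia and its copies, and of those of Slc7a11 0.618% occur elsewhere, so these counts are uncertain to that extent. The other 8 genes had no exon overlap listed.

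Total counts ranged from 5604856 to 7955076 per library, and mitochondrial genes took 6.79% to 9.03% of each total. Levels below are in CPM, the read count relative to the library's total after scaling for library composition, and a gene is called higher or lower when edgeR's quasi-likelihood test over all 14875 genes gave an adjusted p under 0.05. Markers of several cell types moved with injury. All 12 myeloid markers were called higher in the CCI ipsilateral than in the sham ipsilateral hemisphere, with a summed level of 699 to 1088 CPM against 196 to 217 CPM. Of 10 astrocyte markers 6 were higher (6454 to 8158 CPM against 5065 to 5376), and of 9 fibroblast and meningeal markers 5 were higher (338 to 447 CPM against 205 to 211). Of 8 oligodendrocyte markers 4 were higher (7486 to 8586 CPM against 6885 to 7089). Of 8 endothelial and of 8 choroid plexus and ependyma markers 2 each were higher, with overlapping sums, and 0 of 5 red blood cell markers were called. Of the neuron markers 5 of 9 tested were lower (5327 to 5880 CPM against 7047 to 7463), and Gad2 was listed at 0 in every library. The part of cell composition in the results below was not tested, and in these bulk samples more cells of a type and more RNA per cell cannot be told apart.

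Of the 10 genes, 9 were called higher in the CCI ipsilateral than in the sham ipsilateral hemisphere, beside 12.5% of all tested genes called higher, 10.0% lower and 22.5% called in either direction. Mt2 differed most, by 2.26-fold, 95% interval 1.59 to 3.22, followed by Nfe2l2, Slc7a11, Mt1 and Nqo1, and then by Mt3, Txnrd1, Srxn1 and Gclm. Gclc, the catalytic subunit gene of glutathione synthesis, was the one gene not called. The median log2 difference was 0.58 over the 10 genes and 0.0041 over all tested genes. The 9 called genes were the same ones whose CCI and sham ipsilateral libraries did not overlap, while 21.8% of all tested genes were higher with no overlap in these groups of 4 and 2. Fewer were called when some libraries were left out: 4 of the 10 genes were called without the library of sham animal 4, 4 without that of sham animal 6, and 5 without CCI ipsilateral animal 5. Nfe2l2, Slc7a11 and Mt2 were called without any 1 of the 13 libraries.

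**Figure D1:**
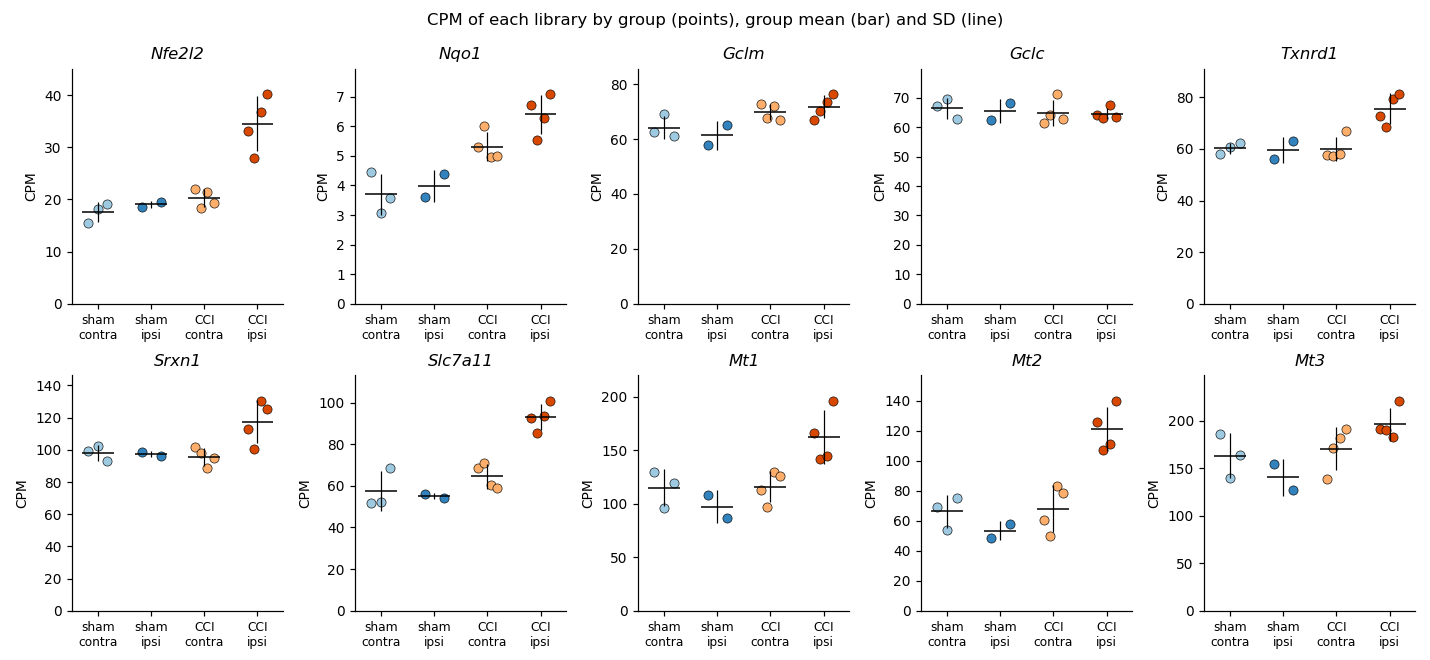
CPM of each of the 10 genes in each library (points, vertical axis from 0), by group, with the group mean (horizontal bar) and SD (vertical line). In 9 genes the 4 CCI ipsilateral points lie above both sham ipsilateral points, as for Mt2 with means of 121 and 53.4 CPM, and in Gclc the groups overlap.

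Nfe2l2, the gene of Nrf2 itself, was measured at 33.1, 27.9, 36.7 and 40.2 CPM on the injured side of CCI animals 1, 2, 3 and 5, an animal order kept below. It was at 18.6 and 19.5 CPM on that side of sham animals 4 and 6, at 22.0, 18.3, 21.4 and 19.2 on the contralateral side of the CCI animals and at 15.4, 18.2 and 19.2 on that of sham animals 4, 6 and 8. Every CCI ipsilateral library was above all 9 others, and the other 3 groups overlapped. Nfe2l2 was higher in the CCI than in the sham ipsilateral hemisphere (log2 difference 0.85 ± 0.13, edgeR adjusted p = 1.61e-05), by 1.81-fold, 95% interval 1.47 to 2.23. It was also higher than in the contralateral hemisphere of the same CCI animals (log2 difference 0.77 ± 0.10, edgeR adjusted p = 1.67e-06), a comparison that uses the same 4 CCI ipsilateral libraries. The contralateral hemispheres of CCI and sham animals were not called different (log2 difference 0.20 ± 0.12, edgeR adjusted p = 0.807).

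The cystine side of glutathione synthesis starts with Slc7a11, the light chain of the cystine and glutamate exchanger that brings cystine into the cell. Slc7a11 stood at 92.7, 85.4, 93.8 and 101 CPM in CCI ipsilateral, 56.0 and 54.0 in sham ipsilateral, 68.4, 71.0, 60.2 and 58.9 in CCI contralateral and 51.7, 52.4 and 68.4 in sham contralateral samples. All 4 CCI ipsilateral libraries were above the 9 others, and the highest sham contralateral library reached the CCI contralateral range. The difference from sham was 1.69-fold, 95% interval 1.45 to 1.99 (log2 difference 0.76 ± 0.10, edgeR adjusted p = 4.62e-06). Against the contralateral hemisphere of the same animals it was smaller but also called (log2 difference 0.53 ± 0.08, edgeR adjusted p = 1.83e-05), and CCI and sham contralateral hemispheres were not called different (log2 difference 0.17 ± 0.09, edgeR adjusted p = 0.766). Its partner Slc3a2, the heavy chain that anchors the exchanger in the membrane, was also higher on the injured side than in sham (log2 difference 0.27 ± 0.07, edgeR adjusted p = 0.00614).

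Gclm and Gclc encode the modifier and catalytic subunits of glutamate cysteine ligase, which makes the first bond of glutathione. Gclm was measured at 67.1, 70.2, 73.5 and 76.5 CPM in CCI ipsilateral, 57.7 and 65.1 in sham ipsilateral, 72.8, 67.7, 72.1 and 67.1 in CCI contralateral and 62.5, 69.1 and 61.0 in sham contralateral samples. The ipsilateral groups did not overlap, but CCI ipsilateral animal 1 stood close to sham ipsilateral animal 6, and the 2 hemispheres of the CCI animals overlapped. Gclm was called higher against sham ipsilateral (log2 difference 0.22 ± 0.08, edgeR adjusted p = 0.0425) and not against CCI contralateral (log2 difference 0.04 ± 0.06, edgeR adjusted p = 0.742). The call against sham was lost under DESeq2 (adjusted p = 0.116), with no filter on low counts (edgeR adjusted p = 0.0564) and in each of the fits on TPM values (limma adjusted p from 0.122 to 0.184). The same call was lost when only the 2 groups compared were fitted. It was also lost without CCI ipsilateral animal 3 or 5 or sham ipsilateral animal 4 or 6 (edgeR adjusted p from 0.0515 to 0.384).

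Gclc was at 64.3, 63.2, 67.3 and 63.4 CPM in CCI ipsilateral, 62.5 and 68.2 in sham ipsilateral, 61.3, 64.1, 71.3 and 62.7 in CCI contralateral and 67.1, 69.5 and 62.6 in sham contralateral samples. All 4 groups overlapped. The log2 difference between CCI and sham ipsilateral hemispheres was -0.02 ± 0.08 (edgeR adjusted p = 0.891). Its 95% interval of 0.871 to 1.11-fold holds the differences that these data leave possible and is not a limit of detection. On the TPM scale, which allows for length, the ratio of Gclc to Gclm was 1.29 ± 0.102 (SD, n = 4) in CCI ipsilateral and 1.36 ± 0.0708 (n = 4) in CCI contralateral libraries. In sham animals it was 1.57 ± 0.254 (n = 2) on the ipsilateral and 1.63 ± 0.134 (n = 3) on the contralateral side. This ratio was chosen after the values were seen. The contralateral groups did not overlap (2-sided exact permutation p = 0.0286, the smallest their sizes allow). Nor did the ipsilateral groups (exact permutation p = 0.0667, the smallest possible), but CCI animal 1 at 1.385 and sham animal 6 at 1.391 nearly met. Neither comparison passed adjustment over the 16 shares and ratios tested (Benjamini-Hochberg adjusted permutation p = 0.153 and 0.178).

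Txnrd1 encodes cytosolic thioredoxin reductase, which returns thioredoxin to its reduced form with NADPH. Its level was 72.7, 68.6, 79.5 and 81.4 CPM in CCI ipsilateral, 56.0 and 63.1 in sham ipsilateral, 57.5, 57.4, 58.2 and 66.9 in CCI contralateral and 58.0, 60.6 and 62.1 in sham contralateral samples. The CCI ipsilateral libraries lay above the 9 others, the nearest being CCI contralateral animal 5. The difference was of like size against sham ipsilateral (log2 difference 0.34 ± 0.09, edgeR adjusted p = 0.0036) and against CCI contralateral (log2 difference 0.34 ± 0.07, edgeR adjusted p = 0.000442). The contralateral hemispheres were not called different (log2 difference -0.01 ± 0.08, edgeR adjusted p = 0.997). Without sham ipsilateral animal 4 the edgeR adjusted p against sham was 0.106.

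Srxn1 encodes sulfiredoxin, which repairs overoxidised peroxiredoxins. It was measured at 113, 100.4, 131 and 126 CPM in CCI ipsilateral, 98.8 and 96.0 in sham ipsilateral, 102, 98.1, 88.6 and 94.7 in CCI contralateral and 99.3, 103 and 92.9 in sham contralateral samples. CCI ipsilateral animal 2 was close to the sham ipsilateral libraries and below the highest library of each contralateral group, while the other 3 stood clear of them. Srxn1 was called higher against sham ipsilateral (log2 difference 0.27 ± 0.08, edgeR adjusted p = 0.0195) and against CCI contralateral (log2 difference 0.29 ± 0.07, edgeR adjusted p = 0.00183). Against sham it was not called on TPM values (limma adjusted p from 0.0568 to 0.0958), nor without either sham ipsilateral library or without CCI ipsilateral animal 3 or 5.

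Nqo1, the NAD(P)H quinone reductase often used as a readout of Nrf2 activity, was the least abundant of the 10 genes. Its rounded counts were 50, 45, 46 and 57 in CCI ipsilateral, 21 and 29 in sham ipsilateral, 36, 43, 37 and 28 in CCI contralateral and 30, 20 and 24 in sham contralateral samples. Scaled to CPM these were 6.71, 5.55, 6.30 and 7.10, then 3.62 and 4.38, then 5.31, 6.01, 4.97 and 4.98, and last 4.45, 3.08 and 3.57. CCI libraries of both hemispheres were above every sham library, and the 2 CCI hemispheres overlapped each other. Nqo1 was called higher in the CCI ipsilateral than in the sham ipsilateral hemisphere (log2 difference 0.67 ± 0.23, edgeR adjusted p = 0.0337) and not against CCI contralateral (log2 difference 0.27 ± 0.17, edgeR adjusted p = 0.309). The contralateral difference of 1.43-fold, 95% interval 1.04 to 1.99 did not pass the test over all genes (log2 difference 0.52 ± 0.21, edgeR adjusted p = 0.591). At these counts the ipsilateral call was lost under DESeq2 (adjusted p = 0.145), with no low-count filter (edgeR adjusted p = 0.072) and without CCI ipsilateral animal 1 or 5 or sham ipsilateral animal 4 or 6 (edgeR adjusted p from 0.0601 to 0.22).

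Among the metallothioneins, Mt2 had the largest difference. Mt2 was at 126, 107, 111 and 140.0 CPM in CCI ipsilateral, 48.7 and 58.0 in sham ipsilateral, 60.8, 49.9, 83.1 and 78.5 in CCI contralateral and 69.2, 54.1 and 75.2 in sham contralateral samples. Every CCI ipsilateral library was above the 9 others, and the other 3 groups overlapped. Mt2 was higher against sham ipsilateral (log2 difference 1.18 ± 0.22, edgeR adjusted p = 0.0041) and against CCI contralateral (log2 difference 0.84 ± 0.17, edgeR adjusted p = 0.00621), where it was 1.78-fold, 95% interval 1.37 to 2.33. The contralateral hemispheres of CCI and sham animals were not called different (log2 difference 0.04 ± 0.20, edgeR adjusted p = 0.995).

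Mt1, the neighbour of Mt2 on the chromosome, was measured at 166, 142, 145 and 196 CPM in CCI ipsilateral, 108 and 86.2 in sham ipsilateral, 112, 96.7, 129 and 126 in CCI contralateral and 129, 95.9 and 119 in sham contralateral samples. The CCI ipsilateral libraries were above all others, and the other 3 groups overlapped. Mt1 was called higher against sham ipsilateral (log2 difference 0.74 ± 0.19, edgeR adjusted p = 0.0175), though not without sham ipsilateral animal 6 (edgeR adjusted p = 0.186). Against CCI contralateral (log2 difference 0.49 ± 0.14, edgeR adjusted p = 0.0385) the call was lost with no low-count filter (edgeR adjusted p = 0.0626) and without any 1 of 6 libraries: CCI contralateral animal 1, 2 or 5, sham contralateral animal 8, and CCI ipsilateral animal 1 or 5 (edgeR adjusted p from 0.0536 to 0.0928).

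Mt3 was at 191, 189.6, 182 and 221 CPM in CCI ipsilateral, 154 and 127 in sham ipsilateral, 138, 171, 181 and 191 in CCI contralateral and 186, 139 and 164 in sham contralateral samples. The CCI ipsilateral libraries were above both sham ipsilateral ones and overlapped both contralateral groups. Mt3 was called higher against sham ipsilateral (log2 difference 0.49 ± 0.15, edgeR adjusted p = 0.0422), and not against CCI contralateral (log2 difference 0.20 ± 0.12, edgeR adjusted p = 0.278). The call against sham was lost without any 1 of the 6 ipsilateral libraries, CCI contralateral animal 2 or 3, or sham contralateral animal 8 (edgeR adjusted p from 0.0534 to 0.324). With the animal as a block the CCI ipsilateral difference from the contralateral hemisphere was of the same size and passed (log2 difference 0.20, edgeR adjusted p = 0.0163).

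Within each CCI animal the ipsilateral exceeded the contralateral level in 4 of 4 animals for Nfe2l2, Slc7a11, Txnrd1, Srxn1, Mt1, Mt2 and Mt3, in 3 of 4 for Nqo1 and Gclm, and in 2 of 4 for Gclc. For Mt2 the within-animal log2 difference ranged from 0.42 to 1.11 and for Nfe2l2 from 0.59 to 1.07, whereas for Mt3 it ranged from 0.01 to 0.46. In the comparison of the 2 CCI hemispheres 6 of the 10 genes were called higher and 0 lower, beside 12.8% of all tested genes called higher, 8.9% lower and 21.7% in either direction. The median log2 difference was 0.31 over the 10 genes and -0.0039 over all tested genes.

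**Figure D2:**
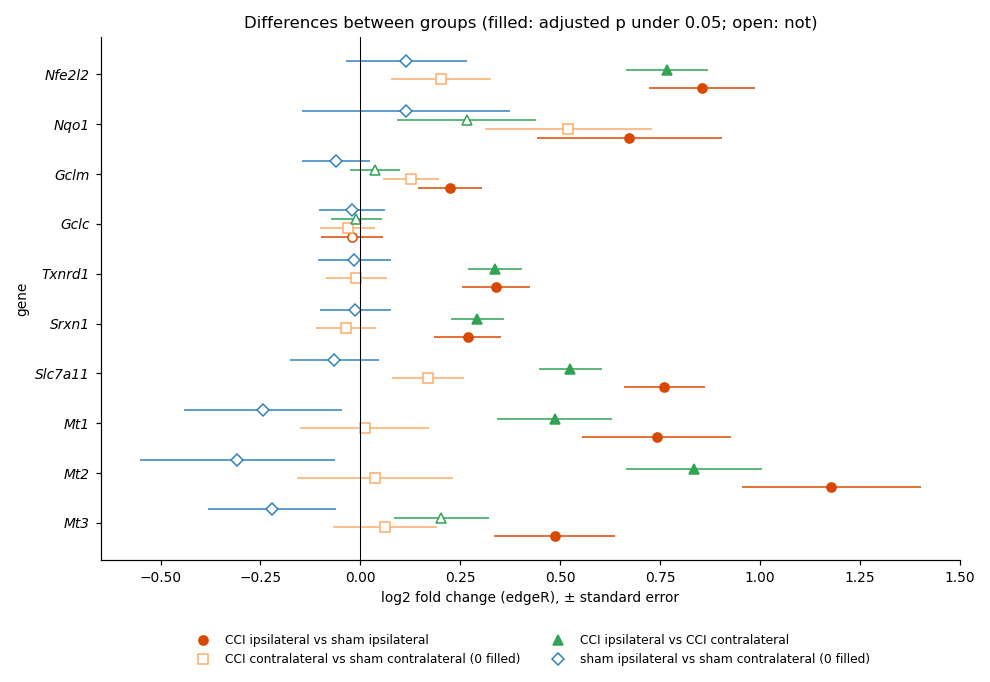
Log2 difference (horizontal axis) with its standard error from edgeR for each of the 10 genes in 4 comparisons; filled symbols passed an adjusted p of 0.05. The comparisons with the CCI ipsilateral hemisphere hold all filled symbols, 9 against sham and 6 against the contralateral side, and Gclc lies near 0 in all 4.

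Away from the injured hemisphere 0 of the 10 genes were called. Between CCI and sham contralateral hemispheres 0.0941% of all tested genes, 14 in number, were called in either direction (0.0807% higher and 0.0134% lower). Of the 10 genes Nqo1 alone had an unadjusted edgeR p under 0.05, and DESeq2, limma on voom weights and limma on TPM values also called 0. The log2 differences ran from -0.04 for Srxn1 to 0.52 for Nqo1, with 0.13 for Gclm, -0.03 for Gclc, 0.01 for Mt1 and 0.06 for Mt3, and a median of 0.05. Between the hemispheres of sham animals edgeR called 0.00672% of genes, which is 1 gene, and 0 of the 10 had an unadjusted p under 0.05; the same other tools called 0 of the 10. In sham animals Mt1, Mt2 and Mt3 had log2 differences of -0.24 ± 0.20, -0.31 ± 0.24 and -0.22 ± 0.16 between ipsilateral and contralateral (SE), none called, with 2 ipsilateral libraries.

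The hemisphere difference in CCI was then set against that in sham in one interaction test. It was larger in CCI for Nfe2l2 (log2 difference 0.65 ± 0.18, edgeR adjusted p = 0.0233), Slc7a11 (log2 difference 0.59 ± 0.14, edgeR adjusted p = 0.00766) and Mt2 (log2 difference 1.14 ± 0.30, edgeR adjusted p = 0.0479). These 3 of 10 stand beside 4.84% of all tested genes called in this direction, 2.99% in the other and 7.83% in either. All 10 estimates were above 0, from 0.01 for Gclc to 1.14 for Mt2, with a median of 0.39 beside 0.0080 over all tested genes. Those of Gclc and Nqo1 did not keep this sign, reaching -0.05 and -0.0013 with 1 library left out. For Txnrd1 the log2 value was 0.35 ± 0.11 (edgeR adjusted p = 0.0548). Under 8 alternatives other than leaving out 1 library, Nfe2l2 and Slc7a11 each lost the call in 3 and Mt2 in 2. Leaving out 1 library each, Nfe2l2 lost the call in 4 of 13 fits and Slc7a11 in 1. With the animal as a block, which keeps 12 libraries of 6 animals, 5 were called: Mt1 (edgeR adjusted p = 0.00291), Mt3 (0.0195) and Txnrd1 (0.047) joined Nfe2l2 and Slc7a11, and Mt2 was not called (0.124). Without sham ipsilateral animal 6, 0 were called by edgeR in the fit without a block, 1 was called without sham ipsilateral animal 4, CCI ipsilateral animal 5 or sham contralateral animal 8, and 5 were called without CCI ipsilateral animal 2. The Mt2 call was lost without any 1 of 8 libraries: CCI contralateral animal 1, sham contralateral animal 4 or 8, CCI ipsilateral animal 1, 3 or 5, and sham ipsilateral animal 4 or 6 (edgeR adjusted p from 0.0643 to 0.152).

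On the TPM scale, which corrects for length and so allows levels of different genes to be compared, the metallothioneins were far above the other genes. In sham ipsilateral libraries Mt3 was at 575 ± 86.7 TPM (SD, n = 2), Mt1 at 398 ± 69.9, Mt2 at 211 ± 22.9 and Srxn1 at 80.0 ± 2.03, and Nqo1 was lowest at 5.67 ± 0.684. The order from highest to lowest was Mt3, Mt1, Mt2, Srxn1, Gclc, Txnrd1, Gclm, Nfe2l2, Slc7a11 and Nqo1 in both sham groups and in CCI contralateral libraries. In CCI ipsilateral libraries Txnrd1 (50.5 ± 4.23 TPM, n = 4) stood above Gclc (43.1 ± 1.83 TPM), with no overlap. The lowest Txnrd1 library there, at 45.9 TPM, nearly met the highest Gclc library, at 45.8 TPM. Neighbours whose libraries overlapped were Mt3 with Mt1 and Gclm with Nfe2l2 in CCI ipsilateral, Gclc with Txnrd1 in CCI contralateral, and Nfe2l2 with Slc7a11 in both contralateral groups.

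Together Mt1, Mt2 and Mt3 summed to 2001, 1848, 1881 and 2327 TPM in CCI ipsilateral libraries and 1279 and 1089.7 TPM in sham ipsilateral libraries. Mt2 made up 24.7% ± 0.673 of this sum (SD, n = 4) in CCI ipsilateral, 18.1% ± 3.97 (n = 2) in sham ipsilateral, 18.6% ± 2.28 (n = 4) in CCI contralateral and 18.7% ± 1.53 (n = 3) in sham contralateral libraries. All 4 CCI ipsilateral shares of Mt2, from 23.9% to 25.5%, were above those of the other 9 libraries. The share of Mt3 was lower in CCI ipsilateral libraries, at 41.4% ± 1.76 (n = 4) against 48.5% ± 1.85 (n = 2) in sham ipsilateral and 48.5% ± 4.10 (n = 4) in CCI contralateral, again with no overlap. The mean share of Mt1 lay between 32.9% and 33.9% in the 4 groups. These shares were chosen after the values were seen. Between the hemispheres of the same 4 CCI animals the share of Mt2 was higher in 4 of 4 and that of Mt3 lower in 4 of 4, with an exact permutation p within animals of 0.125 for each, the smallest that 4 pairs allow (2-sided). Against sham ipsilateral the exact permutation p was 0.0667 for each, again the smallest possible, and 0.178 after adjustment over the 16 shares and ratios tested without pairing.

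**Figure D3:**
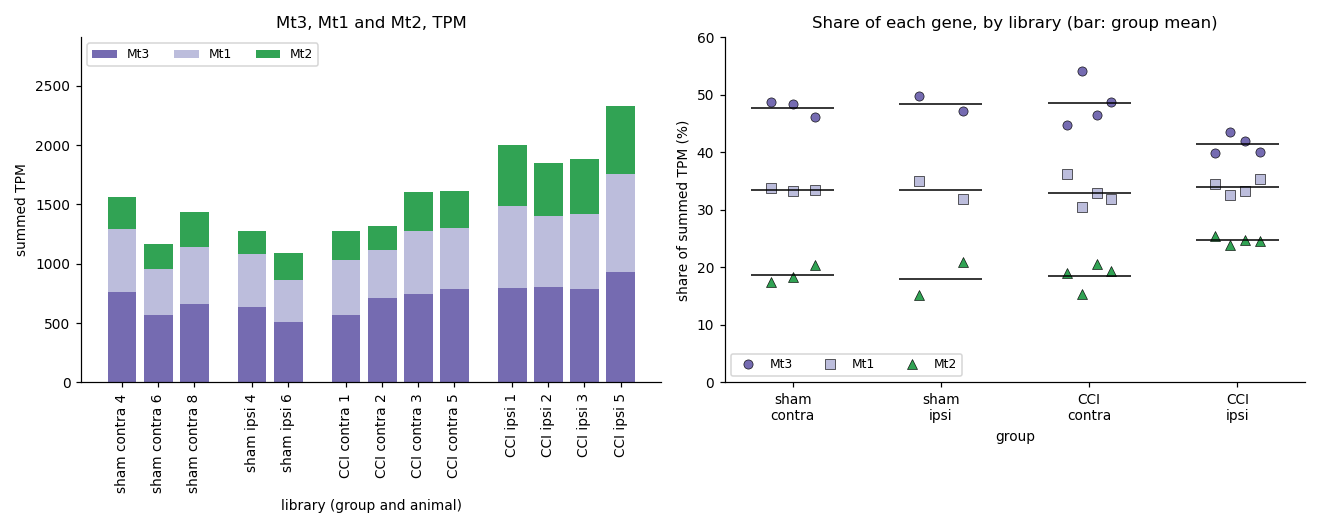
Left, summed TPM of Mt3, Mt1 and Mt2 in each library (stacked bars from 0). Right, share of each gene in that sum (percent), by library (points) and group mean (bars): the Mt2 share is 23.9% to 25.5% in CCI ipsilateral libraries, above all others.

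Lists of related genes were examined in the same fit, where the median log2 difference over all tested genes was 0.0041. Of 11 Nrf2 regulators and partners 1 was higher and 2 were lower in the CCI than in the sham ipsilateral hemisphere, with a median log2 difference of -0.03, counts close to the shares of all tested genes called (12.5% higher and 10.0% lower). The higher one was Bach1, a repressor that competes with Nrf2 at its elements (log2 difference 0.50 ± 0.12, edgeR adjusted p = 0.00271), which was also higher against CCI contralateral (log2 difference 0.45 ± 0.10, edgeR adjusted p = 0.000776). The lower ones were Btrc and Gsk3b, both part of a Keap1-independent route of Nrf2 degradation (log2 differences -0.21 ± 0.06 and -0.17 ± 0.06, edgeR adjusted p = 0.018 and 0.0478); for Gsk3b the call was lost under 12 of 22 alternatives. Keap1 had a log2 difference of 0.00 ± 0.09 (edgeR adjusted p = 0.989). The small Maf genes Maff (0.76, 0.273), Mafk (0.46, 0.0783) and Mafg (-0.09, 0.379), the ligase scaffold Cul3 (-0.17, 0.133), the Keap1-binding autophagy adaptor Sqstm1 (-0.03, 0.742) and the related factors Nfe2l1 (-0.12, 0.111) and Nfe2l3 (0.07, 0.866) were not called either, the paired values being the log2 difference and the edgeR adjusted p.

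Among 22 tested genes of 25 other reported Nrf2 targets, 13 were higher and 0 lower, with a median of 0.35. Hmox1, the heme oxygenase that opens the heme ring, had the largest difference, at 72.4 to 128 CPM in CCI ipsilateral and 3.27 to 4.23 CPM in sham ipsilateral libraries (log2 difference 4.75 ± 0.32, edgeR adjusted p = 2.12e-06). Ftl1, the ferritin light chain that stores iron, was at 555 to 713 CPM against 192 to 195 CPM (log2 difference 1.75 ± 0.08, edgeR adjusted p = 2.11e-13). Blvrb, a biliverdin reductase, and Prdx1, a peroxiredoxin, followed (log2 difference 0.88 ± 0.25, edgeR adjusted p = 0.00965; log2 difference 0.71 ± 0.08, edgeR adjusted p = 4.71e-08). The differences of Hmox1 and Ftl1 exceeded that of every one of the 10 genes. Hmox1, Ftl1 and Blvrb also act in the handling of heme and iron. The myeloid marker sum was 699 to 1088 CPM in the same CCI ipsilateral libraries. Astrocyte, fibroblast and oligodendrocyte marker sums were also higher there than in sham ipsilateral libraries. A link of any of these with the differences was not tested. Gpx2 and Osgin1 were too low to test, and Prdx6 was listed at 0 in every library. Without sham ipsilateral animal 6, 7 of the list were called higher.

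Of 16 other antioxidant enzymes 7 were higher and 1 lower, with a median of 0.18. Gpx8 (log2 difference 1.30 ± 0.28), Gpx3 (1.02 ± 0.31), Msrb1 (0.69 ± 0.14) and Prdx4 (0.56 ± 0.17) were the highest (edgeR adjusted p = 0.000941, 0.04, 0.000389 and 0.0142). The lower gene was Sod2, the mitochondrial superoxide dismutase, which lies outside the naming rule and was named after its value was seen (log2 difference -0.21 ± 0.07, edgeR adjusted p = 0.0192). Its call was lost under 5 of 22 alternatives, among them the fits without CCI ipsilateral animal 5 or sham ipsilateral animal 6. Without CCI ipsilateral animal 5, sham ipsilateral animal 4 or sham ipsilateral animal 6, 4, 4 and 3 of this list were called higher, and Gpx3 lost its call under 9 of 22 alternatives.

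**Figure D4:**
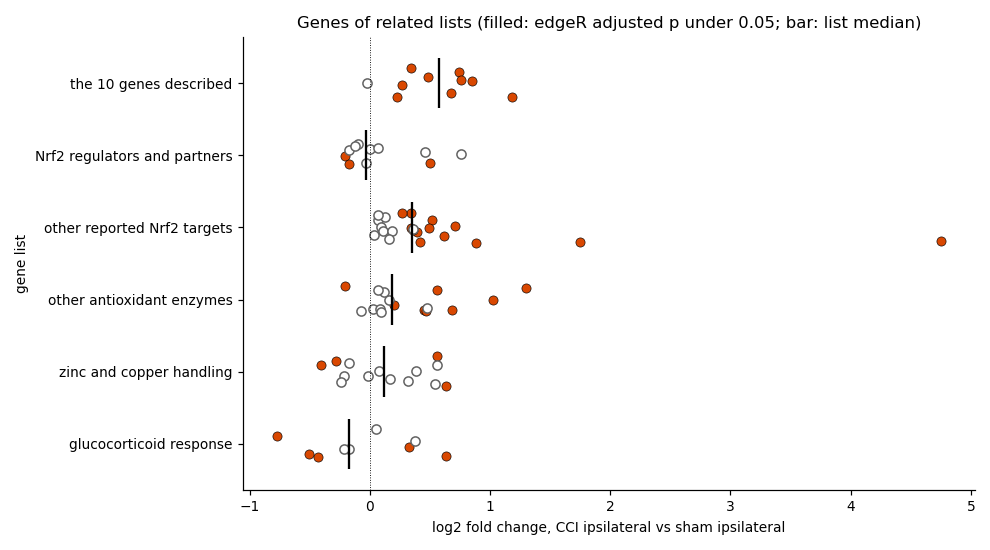
Log2 difference between CCI and sham ipsilateral hemispheres (horizontal axis) for each tested gene of the 10 described and of 5 related lists (points; filled, edgeR adjusted p under 0.05), with list medians (bars). The points farthest right are Hmox1 at 4.75 and Ftl1 at 1.75, and the medians are 0.58 for the 10 genes, 0.35 for other reported Nrf2 targets and -0.03 for Nrf2 regulators and partners.

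Among 14 tested genes of zinc and copper handling 2 were higher and 2 lower, with a median of 0.12, again close to the shares over all tested genes given above. The zinc importer Slc39a1 (log2 difference 0.63 ± 0.11, edgeR adjusted p = 6.29e-05) and the copper chaperone Ccs (log2 difference 0.56 ± 0.16, edgeR adjusted p = 0.0117) were higher. The vesicular zinc transporter of neurons Slc30a3 (log2 difference -0.40 ± 0.10, edgeR adjusted p = 0.00396) and the zinc importer Slc39a10 (log2 difference -0.28 ± 0.07, edgeR adjusted p = 0.00484) were lower. The neuron marker sum was also lower in the same libraries, and a link between them was not tested. Without sham ipsilateral animal 6 the counts were 1 higher and 1 lower. Mtf1, the metal-sensing factor of the metallothionein genes, was not called (log2 difference -0.21 ± 0.10, edgeR adjusted p = 0.122). In this list Mt4 and Slc39a12 were listed at 0 in every library.

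Of 9 glucocorticoid response genes, looked at because glucocorticoids induce Mt1 and Mt2, 2 were higher and 3 lower, with a median of -0.18. Over all tested genes 12.5% were called higher and 10% lower. A link of this list with the Mt1 and Mt2 differences was not tested. Zbtb16, Per1 and Klf9 were lower (log2 differences -0.78 ± 0.11, -0.50 ± 0.08 and -0.43 ± 0.07, edgeR adjusted p = 6.43e-06, 4.34e-05 and 2.99e-05), and Sgk1, a kinase gene, was higher (log2 difference 0.64 ± 0.13, edgeR adjusted p = 0.00142). Of 6 genes near cystine and glutamate transport Slc3a2 was higher, as given above, and Slc1a1, a neuronal glutamate and cysteine carrier, was lower (log2 difference -0.36 ± 0.07, edgeR adjusted p = 0.000131). In the contralateral hemispheres 0 genes of these lists of related genes were called between CCI and sham. Of the 12 myeloid markers 1 was called higher there.

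Genes whose profile over the 13 libraries was most like that of a member were found by the root mean square difference of log2 CPM centred on each gene's mean, a description in which all genes share the same libraries. Nearest to Nfe2l2 were Pbxip1 (0.0875), Ahnak and Fgfrl1, and its nearest neighbour among the 10 genes was Slc7a11 (0.169), and the reverse. Slc7a11 lay nearest to Itpr2 (0.102), Smo and Rab31. Txnrd1 and Srxn1 were each other's nearest among the 10 (0.103), with Galnt1, Pea15a and Capn2 nearest to Txnrd1 overall and Tmpo, Pak2 and Calu nearest to Srxn1. Mt1 and Mt3 were nearest to each other among the 10 (0.168), and Mt2 lay nearest to Mt1 at 0.233. For each of the 10 genes the nearest other member was farther than the 3 genes nearest to it. Among all genes Mt1 lay nearest to Szrd1, Aldh1a1 and Metrn, Mt2 to Tmem176b (0.164), Zfp36 and Hfe, and Mt3 to Cst3 (0.0766), Adgrv1 and Phgdh. Gclm lay nearest to Commd8, Nek7 and Tbc1d14, and Nqo1 to Trp53inp1, Tmc6 and 2810459M11Rik.

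The authors' deposited table of DESeq2 comparisons gave other values for some of these genes. Of the 10 genes, 4 in the authors' deposited table had a false discovery rate under 0.05 between CCI and sham ipsilateral hemispheres, all higher: Nfe2l2 (0.88), Slc7a11 (0.84), Mt3 (0.54) and Txnrd1 (0.30, log2 estimates). For Mt2 the authors' deposited table gives 0.09 (false discovery rate 0.923), where the deposited counts gave 1.18, and for Mt1 0.18 (0.683), where the counts gave 0.74. The counts bound what any pair of libraries can give: the log2 CPM ratio of Mt2 between 1 CCI and 1 sham ipsilateral library ranged from 0.89 to 1.52. Estimates in the authors' deposited table lay outside such bounds for Gclm, Gclc, Mt1 and Mt2 in this comparison and for Gclc, Mt1 and Mt2 between contralateral hemispheres, where the table gives -1.10 for Mt2 (false discovery rate 0.313) and the counts 0.04. Between the 2 CCI hemispheres the authors' deposited table and the counts differed by at most 0.0033 (log2) for the 10 genes, and the table calls Nfe2l2, Txnrd1 and Srxn1 there. Over all 14875 tested genes the median absolute difference was 0.128 for CCI against sham ipsilateral and 0.00116 between CCI hemispheres. The headers of that table name a treatment, hemisphere and time term; no source used here says which libraries entered its fit, and the cause of the difference was not tested.

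**Figure D5:**
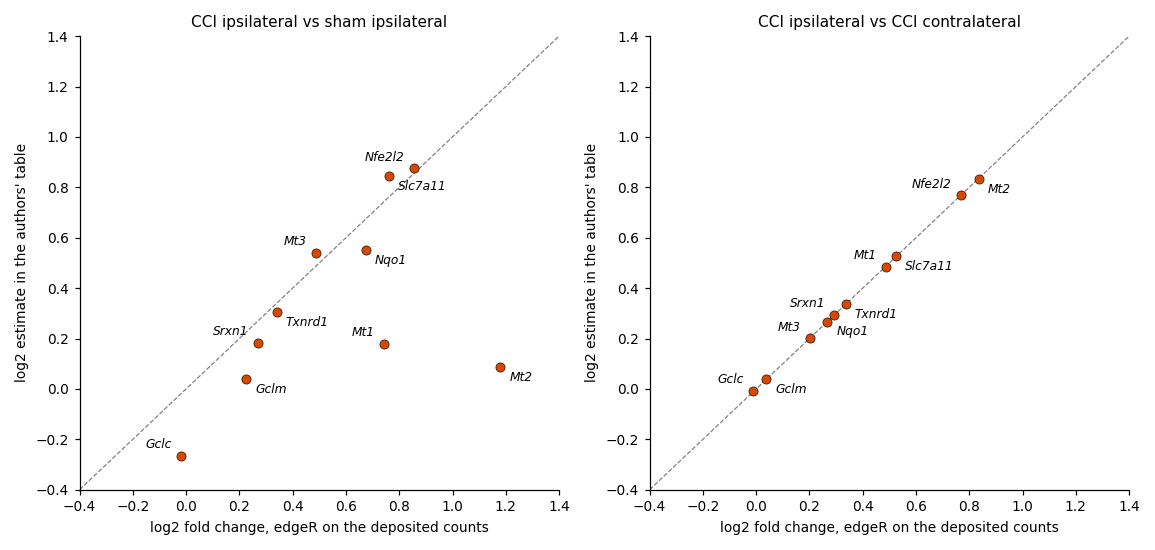
Log2 estimate in the authors' deposited table (vertical axis) against the log2 difference from the deposited counts by edgeR (horizontal axis) for the 10 genes; the dashed line marks equal values. For CCI against sham ipsilateral (left) Mt2 lies at 1.18 from counts and 0.09 in the table, and for CCI ipsilateral against contralateral (right) all genes lie on the line.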

How the data were processed

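Polyadenylated RNA of 13 hemisphere samples was sequenced from libraries of a stranded Illumina TruSeq mRNA kit, per the labels' protocols. The deposited expected counts were estimated with RSEM on GRCm38 (mm10), per the submitters' processing notes; no source used here gives tool versions, the aligner or the counting strand. TPM values were deposited by the authors. The authors' deposited table of DESeq2 comparisons, per the file headers, holds log2 estimates, a signed fold score that was not used here, p-values and false discovery rates.

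Expected counts, of which 9.59% were not whole, were rounded. Genes were filtered with filterByExpr, scaled by TMM and tested with edgeR 4.0.16 (R 4.3.3; robust quasi-likelihood fit of 4 group means over 13 libraries, Benjamini-Hochberg over 14875 genes, threshold 0.05). The SE is the log2 difference divided by the square root of F, and 95% intervals use a t quantile on 9 residual degrees of freedom. Alternatives were DESeq2 1.42.0, limma 3.58.1 on voom weights and on log2 TPM with pseudocounts of 1 and 0.1, other filters and scaling, and leaving out each library. Level shares were compared by exact permutation tests, within animals between the hemispheres of CCI animals. The edgeR fit was tested on simulated data: in the ipsilateral comparison it recovered 53.7%, 95.5% and 100% of genes changed by log2 0.5, 1 and 2. The simulated counts followed the spread that the fit itself estimated, and their libraries shared no animals. Only genes above a count limit were changed, so recovery in the real samples may be lower.

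The 2 hemispheres of an animal are tied by label, which pairs the samples; deviations from the group means correlated at 0.00348 to 0.0882 within 6 such pairs. Counts from 5604856 to 7955076 per library limit genes as low as Nqo1. The p-values of the main edgeR fit measure the spread between libraries within groups. They do not use the pairing of the hemispheres of an animal. Named genes were all 10 members, at most the 4 called genes with the largest difference of each other list, all Nrf2 regulators, Mtf1, Slc3a2, and the 3 nearest profiles; those of Gclc are not reported here. The members and lists were chosen with earlier results of these data known.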

Additional observations from a re-analysis of the deposited data

Results flagged for a closer look

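Txnrd1 was at 66.9 CPM in the contralateral hemisphere of CCI animal 5, while the other 3 CCI contralateral libraries were between 57.4 and 58.2 CPM. The gap to the nearest library was 0.921 of the group's range, above Dixon's critical value for 4 samples. It was the only such value in the 20 groups of 4 libraries examined, and chance alone gives about 1 in 20.

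The difference between hemispheres was larger in CCI than in sham animals by an interaction test for Nfe2l2 (log2 difference of differences 0.65), Slc7a11 (0.59) and Mt2 (1.14), with edgeR adjusted p = 0.0233, 0.00766 and 0.0479. With the animal as a block Mt2 was not called (edgeR adjusted p = 0.124). Under 8 alternatives other than leaving out 1 library, Nfe2l2 and Slc7a11 each lost the call in 3 and Mt2 in 2. Leaving out sham ipsilateral animal 6 left 0 of the 10 genes called in this test, and leaving out sham ipsilateral animal 4, CCI ipsilateral animal 5 or sham contralateral animal 8 left 1. In CCI animals the ipsilateral level was higher in 4 of 4 animals for each of the 3 genes. In the 2 sham animals with both hemispheres it was higher in 2 for Nfe2l2, in 2 for Slc7a11 and in 1 for Mt2.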

How the results depend on the processing

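Of the 10 genes, none changed direction in a called comparison under any alternative run. Nfe2l2, Slc7a11 and Mt2 were called in the ipsilateral comparison under all 22 alternatives, and 34 of 220 gene values there lost their call. The number of the 10 genes called ranged, leaving out 1 library each, from 4 to 9 for CCI against sham ipsilateral, 5 to 6 between CCI hemispheres, 0 to 0 in both comparisons without the injured hemisphere, and 0 to 5 for the interaction. The interaction called 1 gene on log2(TPM + 0.1), 1 with any TPM above 0, and 5 with the animal as a replicate block, which also added Mt3 between CCI hemispheres. No paired analysis was possible for CCI against sham because these groups share no animal.

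Over all genes, leaving out 1 library gave 1675 to 3405 calls for CCI against sham ipsilateral (1675 without sham ipsilateral animal 6), 1 to 34 contralaterally, 2363 to 3330 between CCI hemispheres, 0 to 8 between sham hemispheres and 393 to 1457 for the interaction. The contralateral count of 14 became 106 with no filter, 31 with DESeq2, 1 with voom and 45 with only 2 groups fitted. The sham count of 1 became 26 with no filter, 0 on log2(TPM + 1), 3 with any TPM above 0, 22 with 2 groups and 5 with the block. On TPM, the CCI hemispheres gave 2131 (pseudocount 0.1) and 1947 (any above 0) against 3233, and the interaction 699, 617 and 539 against 1165. The share of calls that were higher rose on TPM from 55.5% to between 73.3% and 74.6% for CCI against sham ipsilateral, from 59.0% to between 73.7% and 77.2% between CCI hemispheres, and from 61.8% to between 79.1% and 81.8% for the interaction; the cause was not tested. With 2 sham ipsilateral libraries, small differences from sham have little precision, and Nqo1 rests on 20 to 57 counts per library. Against the mean of both sham groups, an alternative chosen after seeing the data, 9 of the 10 genes were called.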
